A study of Mus musculus with 2 samples.

Results

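Members are cells with counted transcripts of the epithelial genes Epcam, Krt8 or Krt18 and none counted of the leukocyte gene Ptprc. They made up 310 of 8194 kept lung barcodes (3.78%, 95% exact Clopper-Pearson interval 3.38 to 4.22). Barcodes entered when 200 or more genes were seen and mitochondrial genes gave no more than 10% of the unique molecular identifiers (UMIs, counted RNA molecules). A member had at least 3 UMIs over Epcam, Krt8 and Krt18, no Ptprc UMI, and under 0.5% of its UMIs from the neutrophil genes S100a8 and S100a9. Of the members, 113 were deep (at least 5000 UMIs), 172 were shallow (under 2000 UMIs) and 25 lay between. The same rule found 0 of 2243 kept barcodes in the muscle library, which allows a share of up to 0.134% (a floor of 3 cells). The largest count of the 3 rule genes in a kept muscle barcode was 2 UMIs.

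The series holds 1 single-cell RNA library from lung and 1 from gastrocnemius, a calf muscle, both labelled as TB mice with the genotype CAC mouse model; these short names are used as the labels give them. The tissues were digested with Liberase TL and DNase I, red cells were lysed, and CD45-positive cells were taken with magnetic beads before 10x Genomics 5' v2 libraries were made. No treatment, age, sex or strain is given in the sources used here, nor how many mice were pooled in a library. With 1 lung library there are no replicates, so values are UMIs scaled to a total of 1000000 (CPM) over summed cells with exact 95% Poisson intervals, and every interval and floor here covers counting error only. PCR copies are collapsed by the molecular identifiers, but cells of 1 library are not replicates of a condition.

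Keratins are the intermediate filament proteins of epithelial cells. Krt8 and Krt18 pair in simple, single-layered epithelium, and Krt7, Krt19, Krt20 and Krt23 mark subsets of it. Claudins seal the tight junctions between epithelial cells, and each epithelium carries its own set of them. In normal lung, alveolar type 2 cells make surfactant protein C from Sftpc, club cells secrete the product of Scgb1a1, and the transcription factor Nkx2-1 is shared by alveolar and airway epithelium.

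CD45 is the protein of Ptprc, so the members are cells in which no transcript of the marker that the beads selected was counted. Whether the shallow members, with a median of 859 UMIs, lacked that transcript was not tested. The 5 markers given for the member cells were all present in the deep members, 3 of them by the rule itself. Krt8 stood at 3678 CPM, Krt18 at 3777 CPM and Epcam, an epithelial adhesion protein, at 1195 CPM. Wfdc2, a secreted epithelial protein, stood at 3196 CPM (3136 to 3257) and S100a14, an epithelial calcium-binding protein, at 960 CPM (927 to 993), and neither was used by the rule. In 580 lung B cells, chosen by at least 3 UMIs of Cd79a, Cd79b and Ms4a1 with no UMI of a rule gene or of Cd3e, Wfdc2 was at 21.7 CPM and S100a14 at 11.4 CPM. Shallow members held Wfdc2 at 2145 CPM and S100a14 at 647 CPM.

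The rule left cells on both sides of its edges. Among kept lung barcodes 446 had at least 3 UMIs of the rule genes, and 101 of these were left out for Ptprc alone, 19 for S100a8 and S100a9 alone and 16 for both. Of the 101, 17 had at least 50 rule-gene UMIs. A further 55 barcodes met the rule but exceeded the mitochondrial limit. At the threshold, 46 members had exactly 3 rule-gene UMIs, 4 of them deep, and held Krt7 at 333 CPM summed over cells. The 73 barcodes with 2 such UMIs and no Ptprc held it at 329.5 CPM. Deep cells weigh more in such a sum, and by cells Krt7 was seen in 45.7% inside and 28.8% outside the threshold. Barcodes with no rule-gene UMI held Krt7 at 17.4 CPM. Wfdc2 gave 596 CPM just inside the threshold, 363 CPM just outside it and 18.9 CPM without rule-gene UMIs. The libraries shared 64 barcodes, none of them a member.

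Depth divided the members. Deep members had a median of 27469 UMIs (5072 to 123068) and 5384 genes, and shallow members a median of 859 UMIs and 429.5 genes. The rule asks for a number of UMIs, so a deep cell passed it at a lower share: 16 deep members held under 1000 CPM of the rule genes. Likely doublets were marked by closeness to simulated mixtures, with the number set beforehand at 0.8% per 1000 barcodes, or 556 of 8194 kept barcodes. Of the deep members 2 were among those marked, and no shallow member was. The marks rank cells and do not measure a doublet rate.

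**Figure D1:**
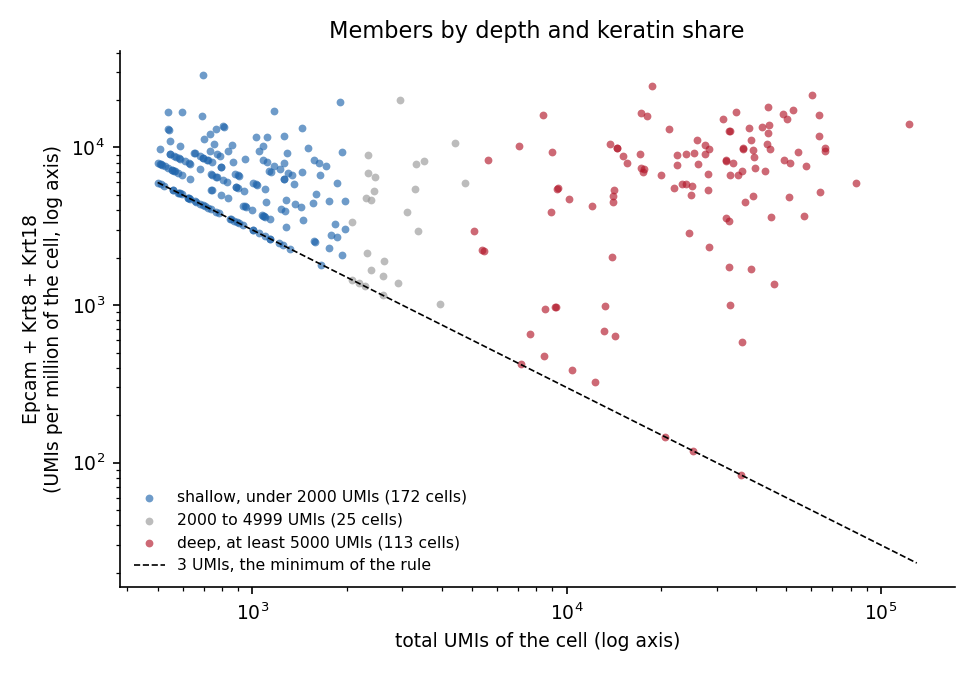
Each point is 1 of the 310 members, with its total UMIs (x, log axis) against the summed UMIs of Epcam, Krt8 and Krt18 as CPM of that cell (y, log axis); the dashed line is the rule's minimum of 3 UMIs. Shallow members lie near that line, and most deep members lie far above it, with 16 of the 113 under 1000 CPM.

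Xist, the RNA of the inactive X chromosome, and 4 Y-linked genes, Ddx3y, Uty, Eif2s3y and Kdm5d, fell on different cells of the lung library. Deep members held Xist at 974 CPM (941 to 1008) and the Y-linked genes at 2.95 CPM (1.42 to 5.43). Xist alone was seen in 91 of 113 deep members, Y-linked genes alone in 4, both in 3 and neither in 15. The other kept lung barcodes held Xist at 26.2 CPM and the Y-linked genes at 187 CPM (182 to 192). Among those with at least 5000 UMIs, 1180 of 1732 had Y-linked UMIs alone, 18 Xist alone and 29 both. B cells held Y-linked genes at 231 CPM and Xist at 5.15 CPM, 25 lung endothelial cells had no Xist UMI and 181 CPM of the Y-linked genes, and the muscle library held 0.429 and 186 CPM. These genes were chosen after the data were seen.

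Barcodes outside the rule's other limits differed in Xist. Of the 55 over the mitochondrial limit, 50 had Xist alone, and of the 17 left out for Ptprc with at least 50 rule-gene UMIs, 10 had Xist alone and 6 had both. Over all 101 left out for Ptprc alone, 11 had Xist alone, 45 Y-linked genes alone, 10 both and 35 neither. The 172 shallow members had 2 Xist and 12 Y-linked UMIs (12.1 and 72.5 CPM), at depths where 160 cells had neither. The labels give neither the sex of the mice nor how many entered a library, so a source of the cells cannot be named from them.

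In the 94 cells with Xist, Krt7 was seen in 94, Krt20 in 93 and Krt19 in 90. Their Krt20 stood at 698 CPM (669 to 728) and their Hnf4a at 108 CPM (96.7 to 120). The 19 without Xist had a median of 10395 UMIs against 32092.5, and Krt20 at 200 CPM in 9 cells. They also held all but 1 of the 9496 Scgb1a1 UMIs, all 1609 Jchain UMIs, 95 of 116 of Col1a1 and 37 of 50 of Cdh5. Of the 16 deep members under 1000 CPM of the rule genes, 9 had no Xist, and of the other 97, 10 had none.

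**Figure D2:**
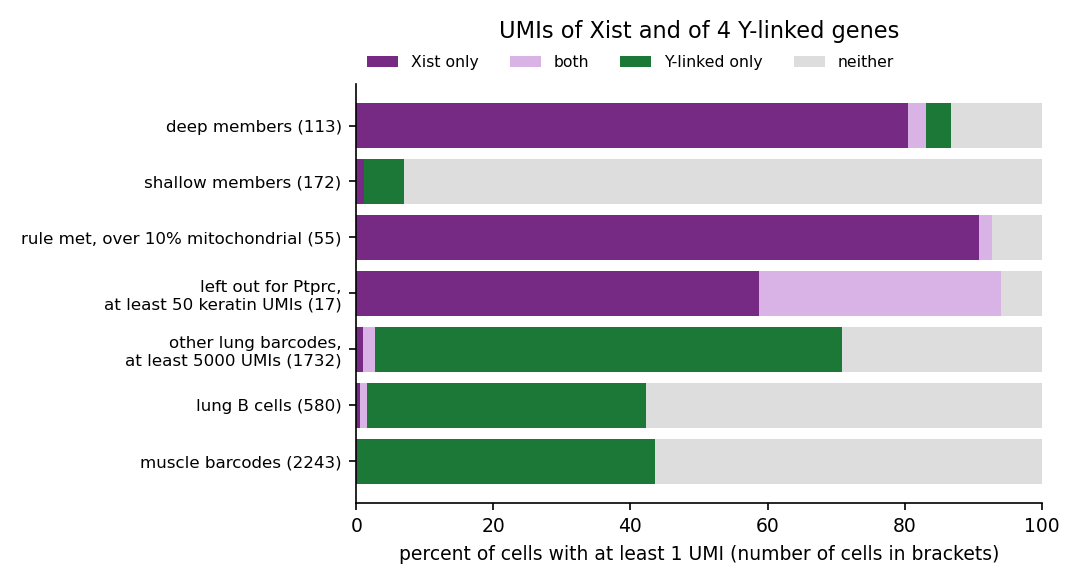
Percent of cells (x) with at least 1 UMI of Xist only, of any of 4 Y-linked genes only, of both or of neither, by set, with the number of cells in brackets. Deep members (91 of 113) and the 55 barcodes over the mitochondrial limit are mostly purple (Xist only). So are the 17 left out for Ptprc with at least 50 rule-gene UMIs. Other lung barcodes of at least 5000 UMIs mostly show the Y-linked colour. Shallow members (160 of 172), B cells (335 of 580) and muscle barcodes (1265 of 2243) mostly have neither, with Y-linked UMIs alone in 236 B cells and 976 muscle barcodes.

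Comparisons below set the 113 deep members against the 7884 other kept lung barcodes, which are mostly leukocytes and include the epithelial cells that the Ptprc and S100 limits left out. A gene was counted as higher or lower by size when the CPM ratio was at least 4, its 95% interval lay past 2 and the higher side held at least 30 counts; this is no test. Of 13253 genes compared, 9.56% were higher and 13% lower in deep members, and the median log2 ratio was -0.16. Since the rule chose cells by epithelial and leukocyte transcripts, these ratios describe the chosen cells and do not test the choice. A gene with fewer than 30 counts in the other barcodes could be compared only if it was higher in deep members.

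Simple keratins summed to 12396 CPM in deep members against 292 CPM in the other barcodes, and 6 of 7 were higher by size. The rule genes Krt8 and Krt18 are among those 6 and in that sum, so this part follows from the rule. Among deep members one by one, Krt7 ran from 0 to 8320 CPM with a median of 1942 CPM and was seen in 107 of 113 cells. Summed, it stood at 2551 CPM (2497 to 2605) against 58.8 CPM in the other barcodes. Krt19, which has an unusually short tail and is found in ducts and progenitor cells, was at 1535 CPM with a cell median of 984 CPM. Krt20, a keratin known from gut, gastric and urothelial lining, ran from 0 to 2779 CPM over cells with a median of 484.5 CPM. It was seen in 102 of 113 deep members and in 1.03% of the B cells, whose median depth was 2292.5 UMIs. Its summed level was 657 CPM (630 to 685) against 14.9 CPM in the other barcodes and 3.43 CPM in B cells. Krt23 stood at 141 CPM, and Krt80, at 57.9 against 15.4 CPM, was the 1 simple keratin under the 4-fold rule.

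Keratins of stratified and basal epithelium were sparse. Trp63, the basal cell regulator, and Krt17 had no UMI in 3384779 UMIs of the deep members, which allows up to 0.886 CPM (a floor of 3 counts). Krt5 had 15 counts in 7 cells. Krt14 was at 47.3 CPM, but 86.25% of its UMIs came from 4 cells, and Krt6a at 44.0 CPM had 73.2% from 4 cells.

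Claudins were higher by size in 9 of 12 compared genes. Cldn7 stood at 705 CPM (677 to 733) in deep members against 16.7 CPM in the other barcodes, and its cell values ran from 0 to 2141 CPM with a median of 519 CPM. Cldn3 was at 635 CPM and Cldn4 at 511 CPM, against 16.1 and 12.9 CPM. Both are barrier claudins of many epithelia and receptors of the clostridial enterotoxin. Cldn2, which forms cation pores, stood at 174 CPM, Cldn6, known from embryonic epithelium, at 107 CPM, and Cldn9 at 43.4 CPM. Cldn18, whose splice forms serve lung alveolus and stomach, was at 133 CPM (121 to 146) in 86 of 113 cells. Cldn1 had no UMI and was the 1 claudin lower by size, and Cldn5, the claudin of endothelium, stood at 3.55 CPM.

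Krt20 and Cldn4 are shown with their promoter letters because Cldn4 was the gene whose level per cell ranked most like that of Krt20 over the 113 deep members (Spearman rho 0.62 among 8900 genes searched). Krt8 and Krt7 followed with rho 0.61 each. These are descriptions of cells that share a library and differ in depth, and the rule for naming likeness was chosen after values were seen. The sequences are from RefSeq on GRCm38.p6, a build other than the GRCm39 of the counts, and cover the 250 bases before the annotated start on the minus strand of each gene. Capitals mark TATAAA, the TATA box letters, or TGANTCA, the letters of the AP-1 type of motif, searched on both strands. The Krt20 window is chr11:99438154-99438403 and the Cldn4 window chr5:134946935-134947184.
Krt20: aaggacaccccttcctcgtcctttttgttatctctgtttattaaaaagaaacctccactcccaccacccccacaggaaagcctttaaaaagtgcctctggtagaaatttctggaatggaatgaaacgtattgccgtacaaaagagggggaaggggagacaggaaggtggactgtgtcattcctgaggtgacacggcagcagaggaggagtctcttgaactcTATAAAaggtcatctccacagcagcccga
Cldn4: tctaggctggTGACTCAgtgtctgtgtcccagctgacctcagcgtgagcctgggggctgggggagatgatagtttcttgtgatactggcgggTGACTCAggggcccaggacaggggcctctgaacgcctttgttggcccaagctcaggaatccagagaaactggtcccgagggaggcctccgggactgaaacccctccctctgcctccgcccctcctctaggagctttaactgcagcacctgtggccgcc
The Krt20 window held TATAAA at position -29 from the start and no TGANTCA. The Cldn4 window held TGANTCA at -240 and -158 and no TATAAA. Over all 32851 promoter windows of this length, 12.4% held TATAAA and 6.75% held TGANTCA. A match is a run of letters, and no binding was measured.

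Junction and desmosome genes were higher by size in 16 of 18 compared. Cdh1, which encodes E-cadherin, was seen in 103 of 113 deep members at 382 CPM (361 to 403) with a cell median of 358 CPM, against 46.3 CPM elsewhere. The plaque protein Tjp1 at 215 CPM, the adhesion molecule F11r at 333 CPM and the desmosomal cadherin Dsg2 at 129 CPM were all above the other barcodes. Pkp3 and Marveld2 did not reach 4-fold. The integrins of hemidesmosomes, Itga6 and Itgb4, stood at 436 and 221 CPM. Of 9 mesenchymal programme genes 4 were lower and 0 higher by size: Vim, the filament gene of mesenchymal cells and leukocytes, was at 135 CPM against 868 CPM, and 68.3% of its UMIs came from 4 deep cells. Snai2, Twist1 and Cdh2 had 1, 2 and 2 counts.

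**Figure D3:**
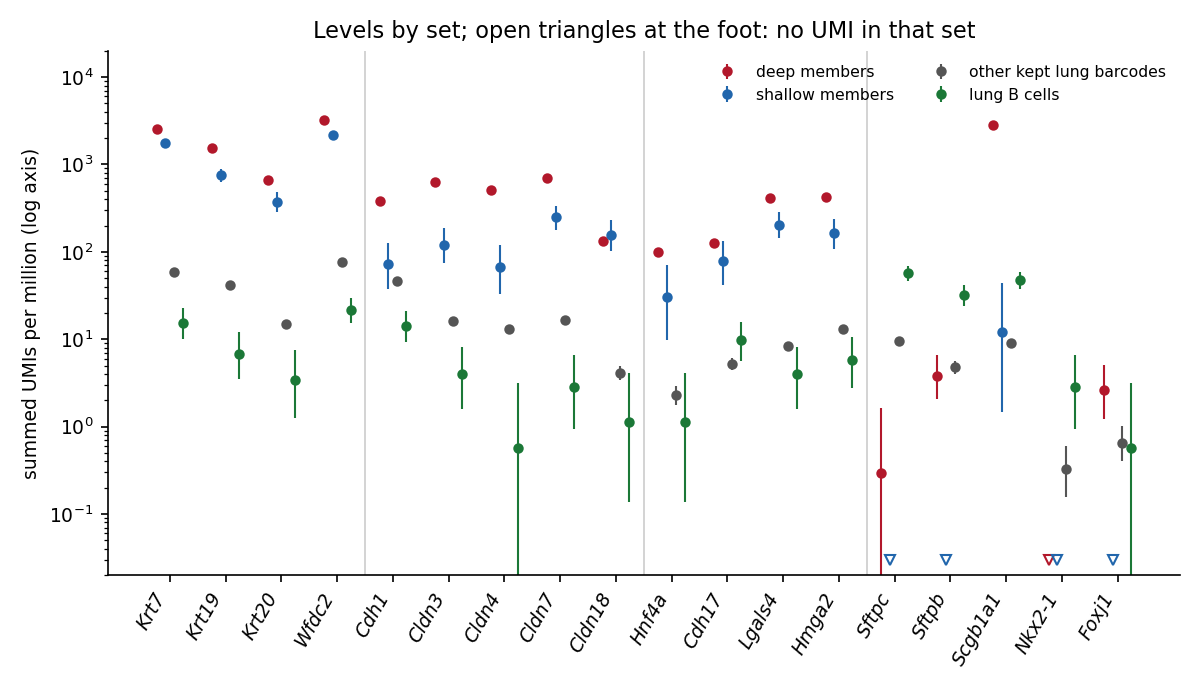
Summed CPM (y, log axis) of 18 genes in deep members, shallow members, other kept lung barcodes and lung B cells; bars are 95% Poisson intervals, open triangles at the foot mark sets with no UMI, and grey lines part keratins with Wfdc2, junction genes, gut-type and embryonic genes, and lung identity genes. Keratins, claudins and Hnf4a are highest in the members, while Sftpc and Nkx2-1 are at or near 0 in them; the Scgb1a1 level of deep members comes from 3 cells.

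Sftpc, Nkx2-1 and Scgb1a1 were at 0 in all but 1, 0 and 3 of the 113 deep members. Sftpc had 1 UMI over the 113 cells (0.295 CPM, 0.00748 to 1.65), so it was seen in 0.885% of deep members, or 0.0100% with each cell thinned to 500 UMIs. With 1 Ptprc UMI allowed in the rule, it stood at 33.4 CPM and its log2 ratio over the other barcodes turned from -5.00 to 2.62. Among B cells, which do not make it, it was seen in 0.517% of cells, with 57.2 CPM lying in 3 of 580 cells. Only 3 kept lung barcodes had at least 10 Sftpc UMIs, of which 1 was a member, of middle depth, and 0 were deep. Nkx2-1 and Sftpa1 had no UMI in deep members, and Sftpb had 13 counts, all in 1 cell. Of 9 alveolar type 2 genes compared, 1 was higher and 3 lower by size. The higher one was Sftpd, a collectin also made by other mucosal epithelia, at 46.7 CPM in 34 of 113 deep members.

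Scgb1a1 gave the highest summed level of any lung identity gene, but in very few cells. It stood at 2806 CPM (2749 to 2863), and its 9496 UMIs lay in 3 of 113 deep members with 5633, 3862 and 1 UMIs. The cell with 5633 had 10395 UMIs in all, 1083 genes and 4 UMIs of the rule genes. The cell with 3862 had 33002 UMIs, 7947 UMIs of the club and goblet gene Scgb3a1 and 1166 of Wfdc2. Neither had an Xist UMI, and both were under 1000 CPM of the rule genes, the second at 999.939 CPM. Over the 97 deep members at or above 1000 CPM, a split chosen after the data were seen, Scgb1a1 stood at 0.320 CPM, and with that 1 cell added at 1225 CPM. All 7 club genes compared were higher by size, though Scgb3a1, too, had its 7956 UMIs in 4 cells, and 4 of 113 deep members carried the club list at 10 times its B cell level. Of the ciliated list, Foxj1 had 9 counts in 6 cells, and Sntn, Tmem212 and Dynlrb2 had none. The neuroendocrine genes Chga and Resp18 had no UMI.

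Alveolar type 1 genes gave 3 higher and 3 lower of 6 compared. Emp2 at 230 CPM, Gprc5a at 230 CPM and Cldn18 at 133 CPM, which other epithelia also express, were higher by size. Hopx at 8.57 CPM, Pdpn at 11.5 CPM and Akap5 with 2 counts were lower. Ager, the defining receptor of these cells, had 12 counts (3.55 CPM) against 2.79 CPM elsewhere. Msln, a surface protein of mesothelium and of several epithelia, was at 127 CPM in 70 of 113 cells, whereas the other mesothelial genes Upk3b, Lrrn4, Wt1, Upk1b and Nkain4 had 0, 1, 6, 1 and 1 counts.

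Genes of gut and gastric lining were found across the deep members. All 6 gut genes compared were higher by size, and the other 6 of the 12 listed did not reach the counts to be compared. The 12-gene list was carried, with at least 5 UMIs and 10 times its B cell level, by 96 of 113 deep members (85.0%, 77.0 to 91.0) and 0.279% of the other barcodes. These shares are not at like depth, since 5 UMIs are harder to reach in the other barcodes, with a median of 2299.5 UMIs against 27469. Only 4 of 172 shallow members carried the list, though they held it at 780 CPM summed. Cdh17, the intestinal cadherin, was at 127 CPM in 84 cells, Vil1, the microvillus protein villin, at 84.8 CPM in 82 cells, and Lgals4, a galectin of gut lining, at 416 CPM in 60 cells. Tff3 stood at 154 CPM, with 90.8% of its UMIs in 4 cells. Among other genes of the list, Cdx1 had no UMI, Muc2 had 4 counts in 1 cell, and Cdx2, the intestinal master regulator, had 15 counts in 6 cells. Among mucosal secretion genes 6 of 10 were higher and 3 lower. Agr2, a folding enzyme of mucus-making cells, was at 378 CPM in 52 cells, the gastric trefoil genes Tff1 and Tff2 at 542 and 219 CPM in 28 and 27 cells, and Pigr, the antibody transporter of mucosa, at 222 CPM in 47 cells. Reg3g, an antibacterial lectin, was at 889 CPM but in 3 cells. Krt20 is on this list as well as among the simple keratins, and it gave 657 of the list's 1525 CPM. Without Krt20, 66 of 113 deep members (58.4%, 48.8 to 67.6) carried the list, an alternative added after seeing the data. By the same measure 49 carried the alveolar type 1, 34 the mammary, 29 the mesothelial, 6 the basal, 4 the club, 1 the ciliated and 0 the alveolar type 2 list. The measure is not alike across lists, since B cells held the alveolar type 2 list at 597 CPM and the gut list at 18.3 CPM.

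Epithelial transcription factors were higher by size in 14 of 14 compared, and 8 of the 22 listed did not reach the counts to be compared. Elf3, an epithelial differentiation factor, was at 221 CPM (205 to 237) in 89 of 113 deep members against 5.44 CPM elsewhere. Ehf stood at 119 CPM, Klf5, a factor of proliferating epithelium, at 118 CPM, and Sox9, a progenitor factor, at 107 CPM. Hnf4a, a nuclear receptor of liver and gut epithelium, ran from 0 to 866.5 CPM over cells with a median of 58.1 CPM. It was seen in 78 of 113 deep members at 101 CPM (90.3 to 112), against 2.29 CPM in the other barcodes. Other endoderm factors, Foxa1, Foxa3 and Gata6, were at 43.1, 33.4 and 31.3 CPM. Hmga2, a chromatin protein of embryonic tissues, was at 423 CPM (401 to 446) in 87 cells, against 13.2 CPM elsewhere, and Igf2bp1, an embryonic RNA-binding protein, at 16.5 CPM in 37 cells.

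**Figure D4:**
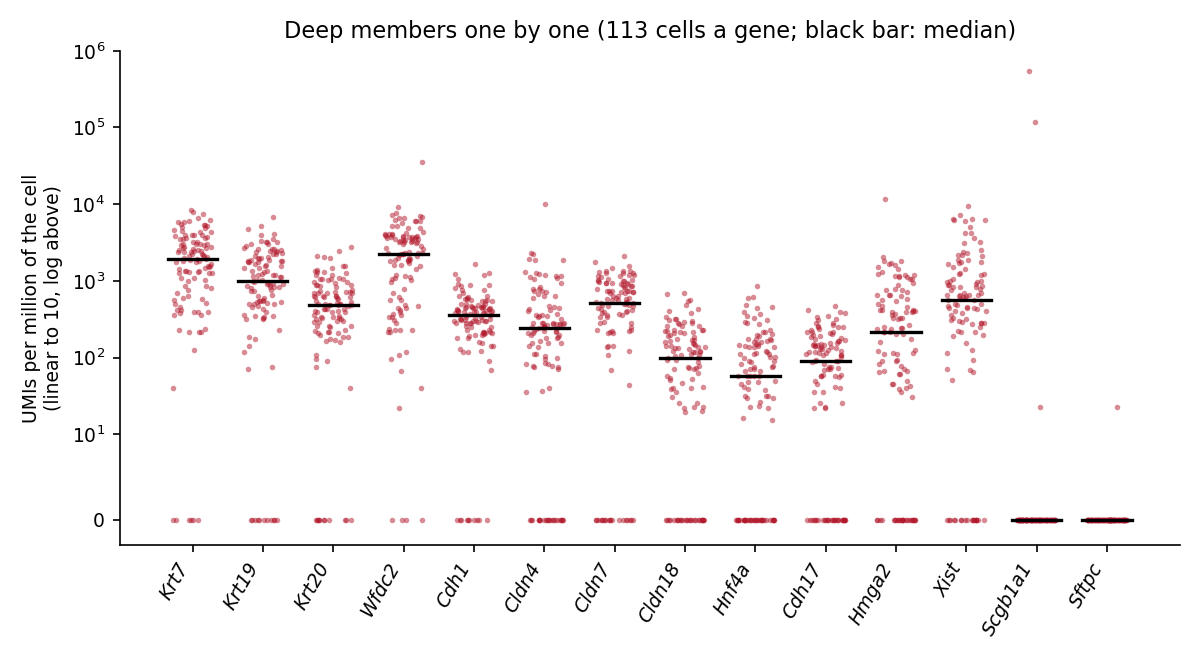
Each point is 1 of the 113 deep members, with the gene's CPM in that cell (y, linear to 10 and log above); black bars are medians. Keratin, Cldn4, Cldn7, Cdh1 and Wfdc2 values fill most cells, and Cldn18, Hnf4a and Hmga2 leave more of the cells at 0. Scgb1a1 and Sftpc are at 0 in all but 3 and 1 cells.

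Of 9 genes of the EGF family and its receptors, 7 were higher by size. The ligands Areg, Tgfa, Btc and Ereg stood at 493, 165, 47.6 and 45.5 CPM, and the receptors Egfr, Erbb3 and Erbb2 at 83.9, 60.3 and 36.0 CPM. Serine proteases and their inhibitors gave 8 of 11 higher, among them the inhibitor Spint2 at 626 CPM and the membrane proteases St14 and Tmprss2 at 120 and 93.7 CPM. Slpi, a leukocyte protease inhibitor also made by airway epithelium, was lower at 12.1 against 994.5 CPM, but with no Ptprc limit it turned to higher at log2 2.37. Csf2, which encodes the cytokine GM-CSF, was at 485 CPM (462 to 509) against 3.28 CPM, but in 33 of 113 cells and with 79.7% of its UMIs in 4 of them. Il34, a ligand of the macrophage receptor Csf1r, was at 88.9 CPM in 74 cells against 1.70 CPM. Among Wnt and stem-linked genes 5 of 8 were higher. The list summed to 2541 CPM in deep members, 962 CPM in the other barcodes, 748 CPM in B cells and 2343 CPM in lung endothelial cells. In deep members Ly6a stood at 1288 CPM, Ccnd1, a cyclin of the cell cycle start, at 385 CPM and Sox4 at 293 CPM.

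Antigen presentation genes differed by class. None of 11 class I genes was set apart by size: H2-K1 stood at 958 against 890 CPM and H2-D1 at 919 against 980 CPM. All 7 class II genes were lower, with Cd74 at 290 against 5963 CPM. Among checkpoint ligands 3 of 11 were higher and 5 lower. Cd274, which encodes PD-L1, was at 11.5 CPM (8.19 to 15.8) in 12 of 113 cells against 405 CPM elsewhere. Nectin2, a ligand of TIGIT and its relatives, was at 98.4 against 8.26 CPM, Cd276 at 22.7 against 2.92 CPM and Vtcn1 at 24.5 against 0.295 CPM.

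Cathepsins, the lysosomal proteases that include the one named in the title of the series, gave 1 higher and 6 lower of 13 compared. Ctsl, which encodes cathepsin L, was seen in 99 of 113 deep members with a cell median of 358 CPM. Its summed level was 525 CPM (501 to 550) against 405 CPM in the other barcodes, a log2 ratio of 0.38 (0.30 to 0.45), under the 4-fold rule. Ctse, an aspartic cathepsin of gastric lining and immune cells, was at 211 against 16.4 CPM and the 1 higher. Ctss, the cysteine cathepsin of antigen-presenting cells, was at 21.3 against 1212 CPM. Of the inhibitors, Cstb was at 510 against 731 CPM and Serpinb6a at 549.5 against 68.0 CPM.

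Leukocyte lists were lower in deep members, part of it by the rule: 12 of 14 macrophage, 9 of 10 neutrophil, 11 of 12 T and NK cell and 10 of 11 pan-leukocyte genes. Their summed levels in deep members were 329, 235, 14.8 and 381 CPM, against 12447, 14801, 622 and 8699 CPM in the other barcodes. Ptprc was at 0 by the rule, Cd3d, Cd3g, Nkg7 and Gzma also had no UMI, and Csf3r and Mmp9 had 4 and 2 counts. Endothelial genes summed to 77.7 CPM, with 92.0% of the Cdh5 UMIs in 4 cells, and fibroblast genes to 140 CPM, with 96.6% of the Col1a1 UMIs in 4 cells. Igkc at 1358 CPM had 99.8% of its UMIs in 4 deep cells, and Jchain, the joining chain of antibodies, was in 2. The part of these few cells in other values was not tested. With no Ptprc limit, the genes Cd74, Ctss, Vim, Hopx, Akap5 and Cldn1 were lower by less than 4-fold, at log2 -1.14, -1.85, -1.76, -1.99, -1.43 and -0.42. None of 14 S-phase genes was set apart by size, but their median log2 ratio was 1.17, and the list summed to 602 against 314 CPM. Of 12 G2M genes 1, Cenpf, was higher at 45.2 against 9.41 CPM with 69.9% of its UMIs in 4 cells. The G2M median log2 ratio was 1.38, and the list summed to 617 against 409 CPM. Over all genes compared the median was -0.16. Mki67 was seen in 22 of 113 deep members.

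**Figure D5:**
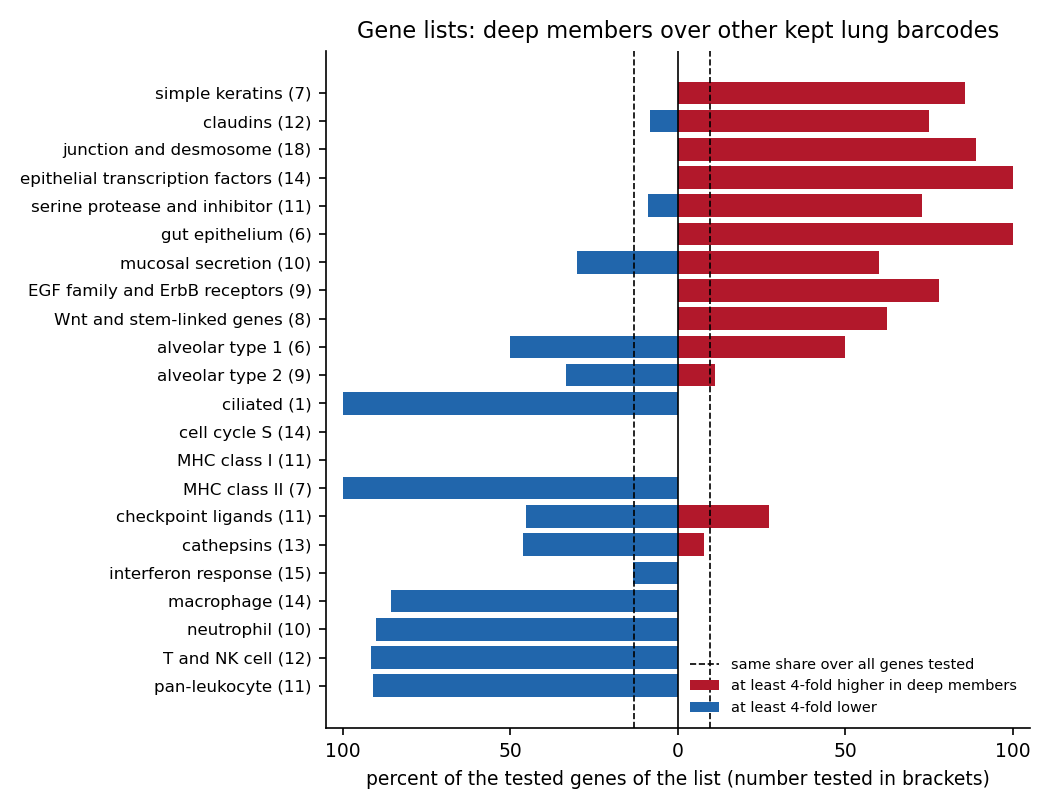
Percent of the compared genes of each list that were at least 4-fold higher (red, right) or lower (blue, left) by size in deep members over the other kept lung barcodes, with the number compared in brackets; dashed lines are the shares over all genes, 9.56% and 13%. Keratin, claudin, junction, transcription factor and gut lists lie to the right, and class II and leukocyte lists to the left. The class I and S-phase lists have no bar, and the keratin list includes the rule genes Krt8 and Krt18.

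The 15 genes with the largest ratios were named among those seen in at least 25% of deep members. Rbp2, the retinol-binding protein of enterocytes, was at 90.4 against 0.590 CPM, and Muc5b and Muc4, a secreted and a membrane mucin, at 237.5 and 94.0 CPM against 1.61 and 1.34 CPM. Mmp7, a metalloproteinase of glandular epithelium, stood at 242 against 2.95 CPM, Onecut2, a liver and gut transcription factor, at 122 against 1.61 CPM, and Anxa10, an annexin of gastric lining, at 33.4 against 0.492 CPM. Serpina1b, a liver antitrypsin gene with near-identical copies whose reads can be split, was at 131 against 1.25 CPM. Kif12 had 43 counts in 32 deep members and none elsewhere. With the floor of 3 counts in place of 0 in the other barcodes, its level of 12.7 CPM was 129-fold higher, a value set by that floor. Several of these were uneven: over deep members with rule genes at or over 1000 CPM the log2 ratio of Muc5b went from 7.21 to 2.52, and 4 cells held 86.9% of the Muc5b and 69.9% of the Rbp2 UMIs, but 20.9% of those of Kif12 and 26.4% of those of Onecut2. Csf2, Vtcn1 and Btc are given above, and Rnf186, Mab21l4, Shank2 and Phlda2 stood between 34.6 and 64.7 CPM.

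Among deep members the genes that varied most beyond counting noise were Malat1, S100a6, Rn18s, Tmsb10, Clu, Trf, Tmsb4x, mt-Co1, Spp1 and mt-Cytb. S100a6, a calcium-binding protein of epithelium and stroma, had a cell median of 13184 CPM and a highest value of 59739.7 CPM. Its level ranked most like those of S100a11 (rho 0.80) and, among named genes, S100a10 (rho 0.76). Clu, the chaperone clusterin, had a median of 2142 CPM and a highest cell of 44084 CPM and ranked most like Fxyd3 (rho 0.71), an ion pump regulator. Trf, the iron carrier transferrin, had a median of 391 CPM and a highest cell of 13280.2 CPM and ranked most like Rbp4 (rho 0.62), the retinol carrier of blood. Spp1, the secreted matrix protein osteopontin, stood at 1503 CPM in 90 cells, above 874 CPM elsewhere by less than 4-fold. Hnf4a ranked most like Gclc (rho 0.63), an enzyme of glutathione synthesis, and Hmga2 most like Acsbg1 (rho 0.71) and Itga6 (rho 0.66).

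Shallow members were set against the 3431 other kept lung barcodes under 2000 UMIs. Of 6311 genes compared, 67 were higher by size (1.06%) and 437 lower (6.92%), and the median log2 ratio was -0.77. Apart from Krt8 and Krt18, Krt7 was at 1759 CPM (1562 to 1973) against 70.5 CPM, Wfdc2 at 2145 against 84.5 CPM, Clu at 1620 against 63.2 CPM and S100a6 at 18088 against 1935 CPM. Tnnt2, a troponin of heart muscle, gave the largest ratio with 37 counts, 224 CPM against 5.02 CPM, and was at 160 CPM in deep members. Fxyd3, Nes, a filament gene of progenitor cells, Smim22, Agr2, Lgals2 and Rbp4 followed with 39 to 91 counts. All 5 simple keratins compared and 1 of 3 claudins, Cldn7 at 248 against 15.05 CPM, were higher. The 5 keratins include Krt8 and Krt18, which are higher by the rule. The gut list gave 2 of 2, Krt20 at 375 against 20.1 CPM and Lgals4 at 205 against 11.03 CPM. Sftpc and Sftpb had no UMI in 165471 UMIs of the shallow members, which allows up to 18.1 CPM, and Scgb1a1 had 2 counts.

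Deep and shallow members held keratins at levels within 4-fold, for Krt8 and Krt18 partly by the rule, and differed in RNA make-up. A shallow cell needs a high share to reach 3 rule-gene UMIs. The lowest share was 1807 CPM of these genes in shallow members and 83.5 CPM in deep members. Over 7287 genes, 240 were higher in deep members (3.29%) and 30 lower (0.412%), with a median log2 ratio of 0.73. Krt8 was at 3678 against 3191 CPM, Wfdc2 at 3196 against 2145 CPM and S100a6 at 15110 against 18088 CPM. Rn18s, the ribosomal RNA gene, stood at 34741 CPM in deep and 183845 CPM in shallow members, and the nuclear RNAs Malat1 at 6705 against 1378 CPM and Neat1 at 960 against 60.4 CPM. Other barcodes under 2000 UMIs held Rn18s at 138511 CPM, Malat1 at 5286 CPM and Neat1 at 550 CPM. Several junction genes were lower in shallow members by more than 4-fold: Cldn3 was at 121 against 635 CPM, Cldn4 at 66.5 against 511 CPM, Cdh1 at 72.5 against 382 CPM and Itgb4 at 12.1 against 221 CPM. With each cell thinned to 500 UMIs, Krt7 was seen in 56.1% of deep and 50.9% of shallow members, and Cldn4 in 16.4% and 3.87%, against 80.5% and 6.40% unthinned.

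Leukocyte transcripts moved with the shallow set. Il1b, an inflammatory cytokine, was at 1184 CPM in shallow and 29.8 CPM in deep members, against 5945 CPM in the other barcodes under 2000 UMIs. G0s2, Ccl3, Chil3, Wfdc17, Laptm5, Plek, Ccl6 and Fcer1g, all known from myeloid cells, and Slpi were the others with the largest ratios. With no Ptprc limit, Laptm5, Plek, Ccl6 and Fcer1g were under 4-fold lower in deep members, at log2 -0.99, -0.69, -1.27 and -0.86. Their shallow levels ran from 218 to 840 CPM and their deep levels from 7.09 to 38.7 CPM. The macrophage list summed to 3493 CPM in shallow against 329 CPM in deep members, the neutrophil list to 3082 against 235 CPM and the pan-leukocyte list to 1922 against 381 CPM. The part of such RNA, of depth and of the ribosomal share in the shallow values was not tested. In the other direction, Scgb3a1, Scgb1a1, Igha, Ighv1-15, Igkv1-110, Jchain and Reg3g had the largest ratios, and their UMIs lay in 2 to 9 deep members. Without the deep members under 1000 CPM of the rule genes, the ratio of each of these genes turned to lower. Xist and Crim1, a membrane regulator of growth factors, were seen with at least 1 UMI in 94 and 92 of 113 deep members.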

How the data were processed

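The deposited files hold raw counts of UMIs per gene and barcode, made by the authors with Cell Ranger 7.0.1 on GRCm39, per the submitters' processing notes; other alignment settings are not given in the sources used here. The smallest deposited barcode had 500 UMIs. Lung totalled 34751225 and muscle 14056163 UMIs. Groups came from the tissue labels, with 1 library each, so no test between conditions was possible. Counts were summed over sets of cells with Python 3.11.15, numpy 2.4.6, scipy 1.17.1 and pandas 2.3.3. Intervals are exact Poisson, Clopper-Pearson or, for ratios, conditional binomial, at 95%. Ratios needed 4-fold, an interval past 2 and 30 counts; the scripts were tested on simulated data. Doublets were marked with scikit-learn 1.9.0 by neighbours among simulated mixtures (2 per cell) and kept in. Scaling by TMM in edgeR 4.0.16, other filters, depth bounds and count minimums were alternatives.

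Genes named were those of 46 lists (515 genes), the 15 with the largest deep ratio seen in at least 25% of deep members, the 10 with the largest shallow ratio in at least 10% of shallow members, the 10 largest each way between deep and shallow members and the 10 most variable (Pearson residuals, theta 100); predicted genes were passed over. Rank-correlation partners and sex-linked genes were added after values were seen. Members and lists were chosen with earlier results of these data known. Some genes of the lists are not reported here.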

Additional observations from a re-analysis of the deposited data

How the results depend on the processing

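No paired analysis was possible because each tissue has 1 library. With 1 library the values carry no replicate error, and depth limits the shallow members most. Except where stated, the cause of the changes below was not tested.

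The 310 members became 138 with at least 10 rule-gene UMIs and 199 with at least 500 genes. The 1267 genes higher in deep members became 2091 with no count minimum and 2414 at 2-fold, and the 1726 lower became 3267 at 2-fold. The 67 higher in shallow members became 44 and 16 with at least 5 and 10 rule-gene UMIs, 40 with 500 genes, 24 with depth bounds of 10000 and 1000 UMIs, 216 with a minimum of 10 counts, 505 with none and 219 at 2-fold. The 240 higher in deep than shallow members became, in the same order for the first 4 of these settings, 131, 10, 83 and 70, then 159 without mitochondrial genes and Rn18s in the totals, 137 with TMM and 1333 at 2-fold. The 30 lower became 58, 16 and 4 with at least 2, 5 and 10 rule-gene UMIs, 10 with no Ptprc limit, 19 with 500 genes, 14 with the other depth bounds, 85 with 10 counts, 246 with no minimum and 53 at 2-fold.

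Sftpc in deep members rose from 0.295 to 33.4 CPM with 1 Ptprc UMI allowed and 27.3 CPM with no limit, and its log2 ratio over other barcodes from -5.00 to 2.62 and 2.29. Thinned, it was seen in 0.0100% of deep members. Scgb1a1 (2806 CPM) became 1183 and 1206 CPM with at least 5 and 10 rule-gene UMIs, 2571 and 2087 with 1 Ptprc UMI and no limit, 2894, 2695 and 2679 with mitochondrial limits of 5%, 20% and none, 2891 without doublets, 2912 with the other depth bounds, 2962 with the reduced totals, 2508 with TMM, 5831 as a mean over cells and 2911 without the deepest member.

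With no Ptprc limit, Slpi turned from lower to higher in deep members, at log2 2.37 over other barcodes and 3.22 over shallow members. Over deep members with rule genes at or over 1000 CPM, chosen after seeing the data, Scgb1a1 was at 0.320 CPM. The 16 deep members under that share left the deep set, which lowered its Scgb1a1 from 2806 CPM. They then counted as other barcodes, which raised Scgb1a1 there from 9.05 to 317 CPM. The ratios over other barcodes below hold both changes, and those over shallow members hold only the first. Reg3g fell to 17.3 CPM in the deep set, still over the 0.426 CPM of the other barcodes before the move. At that share the log2 ratios over other barcodes turned to -9.95 for Scgb1a1, -8.08 for Scgb3a1, -2.48 for Reg3g, -9.03 for Ighv1-15 and -7.35 for Igha. Over shallow members they turned to -5.24 for Scgb1a1, -2.65 for Scgb3a1, -0.067 for Reg3g, -4.24 for Ighv1-15, -3.82 for Igha, -3.65 for Jchain and -5.43 for Igkv1-110. With at least 5 and 10 rule-gene UMIs, 7 and 13 deep members became other barcodes and took 5128 of the 5130 Ighv1-15 UMIs with them. Ighv1-15 turned to -9.10 and -9.07 over other barcodes and -4.94 and -7.31 over shallow members, and Igha to -7.42 and -7.38, and -2.94 and -6.31. Over shallow members Jchain turned to -4.35 and -6.73 and Igkv1-110 to -4.94 and -4.92. A gene without a count enters these ratios at the floor of 3 counts. As a mean over cells Pdpn was at -0.10 against -2.23, and with TMM Cenpf was at 1.94 against 2.26.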
